A study of Mus musculus with 28 samples.

Results

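The matrix metalloproteinases (Mmp), the ADAM and ADAMTS proteases and the tissue inhibitors of metalloproteinases (Timp) were followed in NMuMG cells, a mouse mammary gland epithelial line, while TGF-β drove an epithelial to mesenchymal transition with or without UO126, an inhibitor of ERK signalling. The members were all protein-coding mm9 genes with a numbered Mmp, Adam, Adamts or Timp symbol, which gave 78 of 22380 genes, made up of 23 Mmp, 32 Adam, 19 Adamts and 4 Timp genes. Acetylation of lysine 27 of histone H3 (H3K27ac) was measured by ChIP-seq with the antibody ab4729 in 15 libraries of the subclone NMuMG/E9, 3 for each of 5 conditions. The untreated cells are called 0h. The 4h and 24h cells received 2 ng/ml TGF-β for that time with DMSO, the solvent of the inhibitor, and the ERKi 4h and ERKi 24h cells received the same TGF-β after 25 µM UO126 had been added 30 min earlier. All cells were of 1 subclone of 1 line, no condition held UO126 without TGF-β, and the labels do not say whether replicates came from separate cultures, so the p-values measure the spread between these libraries, which may be technical. No cells were kept for 4h or 24h with DMSO and without TGF-β. In comparisons with 0h, TGF-β therefore cannot be told apart from DMSO or time in culture.

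These families cut and remodel the matrix around cells and the proteins on their surface. Mmp enzymes are zinc proteases that digest collagens, laminins and other matrix proteins, and the membrane-type members work at the cell surface. ADAM proteins sit in the membrane and many of them shed the outer parts of receptors, growth factors and adhesion molecules. ADAMTS proteins are secreted and cleave proteoglycans, procollagens and other matrix proteins. Timp proteins block the active site of these enzymes, and Timp3 also inhibits several ADAM and ADAMTS enzymes. H3K27ac marks active promoters and enhancers, so that its level around these genes is a measure of their regulatory regions and not of their RNA or protein.

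A promoter was the interval within 1000 bp of any start site of a gene, taken at its highest peak. A distal region was a merged set of peaks with its top summit outside every promoter and within 100 kb of its nearest start site, the start being that of a member gene. Regions are named by the gene and the distance in kb from the nearest annotated start, negative when upstream, and this start may be an internal one. Levels are relative pileups, that is, the read pileup at the summit divided by the median pileup of the same library over the 26934 regions with a peak in all 15 libraries. A level of 1.00 is therefore that of a typical shared region. In a bulk measure of this kind, fewer cells carrying the mark and less mark per cell cannot be told apart.

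The sequences below are of regions named in the results, each the 300 bases centred on the top summit, from the plus strand of mm9. Mmp19 -11.6 kb and Adamts6 +2.4 kb are shown because they were higher at 24h than at 0h and lower with the inhibitor. Both regions of Adamts15 are shown because they moved in the opposite directions. Adamts6 +3.3 kb is shown as the neighbour of Adamts6 +2.4 kb. Its calls are no support, as it met the filter for testing only through the 24h libraries. Mmp15 +6.3 kb is shown for its rise with the inhibitor and Mmp24 +2.5 kb for its rise by 4h. Capitals mark each match, on either strand, to the short words of AP-1 (TGANTCA), SMAD (CAGACA), TEAD (GGAATG), RUNX (TGTGGT) or ETS (CCGGAAG) factors. Each word was searched by itself, so matches of different words may overlap.
Mmp19 -11.6 kb, chr10:128216303-128216602, plus strand: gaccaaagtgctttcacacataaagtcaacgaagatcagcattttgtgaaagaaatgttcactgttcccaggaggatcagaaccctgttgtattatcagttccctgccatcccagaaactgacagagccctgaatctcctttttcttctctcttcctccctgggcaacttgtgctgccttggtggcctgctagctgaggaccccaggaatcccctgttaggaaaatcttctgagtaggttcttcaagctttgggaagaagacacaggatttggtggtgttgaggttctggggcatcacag
Adamts6 +2.4 kb, chr13:105237794-105238093, plus strand: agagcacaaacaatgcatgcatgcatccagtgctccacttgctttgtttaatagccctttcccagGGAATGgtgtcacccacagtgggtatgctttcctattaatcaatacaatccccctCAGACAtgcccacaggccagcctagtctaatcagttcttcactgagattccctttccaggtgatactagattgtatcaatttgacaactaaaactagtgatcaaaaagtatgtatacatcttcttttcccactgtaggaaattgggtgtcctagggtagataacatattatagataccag
Adamts6 +3.3 kb, chr13:105238697-105238996, plus strand: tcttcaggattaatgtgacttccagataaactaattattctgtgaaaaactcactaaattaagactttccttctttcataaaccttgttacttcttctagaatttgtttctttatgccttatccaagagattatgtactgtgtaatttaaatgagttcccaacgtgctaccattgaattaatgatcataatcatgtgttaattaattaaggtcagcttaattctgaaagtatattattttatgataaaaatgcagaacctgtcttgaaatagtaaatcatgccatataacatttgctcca
Adamts15 +26.0 kb, chr9:30703931-30704230, plus strand: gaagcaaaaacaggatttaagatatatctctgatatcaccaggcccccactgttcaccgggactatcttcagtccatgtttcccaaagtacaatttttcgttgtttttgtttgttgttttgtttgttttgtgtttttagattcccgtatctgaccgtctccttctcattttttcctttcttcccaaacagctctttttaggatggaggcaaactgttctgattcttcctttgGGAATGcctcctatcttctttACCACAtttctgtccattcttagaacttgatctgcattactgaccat
Adamts15 +35.6 kb, chr9:30694314-30694613, plus strand: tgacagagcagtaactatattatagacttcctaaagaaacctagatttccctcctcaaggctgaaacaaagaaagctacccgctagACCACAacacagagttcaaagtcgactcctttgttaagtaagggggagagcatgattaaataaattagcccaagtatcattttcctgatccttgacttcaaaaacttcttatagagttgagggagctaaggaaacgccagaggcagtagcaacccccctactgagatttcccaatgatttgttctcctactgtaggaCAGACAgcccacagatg
Mmp15 +6.3 kb, chr8:97882937-97883236, plus strand: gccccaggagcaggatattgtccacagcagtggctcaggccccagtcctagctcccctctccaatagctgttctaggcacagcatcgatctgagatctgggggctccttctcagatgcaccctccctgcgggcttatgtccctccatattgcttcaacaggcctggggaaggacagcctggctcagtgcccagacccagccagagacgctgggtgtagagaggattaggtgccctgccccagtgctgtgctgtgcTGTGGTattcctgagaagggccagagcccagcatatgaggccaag
Mmp24 +2.5 kb, chr2:155635098-155635397, plus strand: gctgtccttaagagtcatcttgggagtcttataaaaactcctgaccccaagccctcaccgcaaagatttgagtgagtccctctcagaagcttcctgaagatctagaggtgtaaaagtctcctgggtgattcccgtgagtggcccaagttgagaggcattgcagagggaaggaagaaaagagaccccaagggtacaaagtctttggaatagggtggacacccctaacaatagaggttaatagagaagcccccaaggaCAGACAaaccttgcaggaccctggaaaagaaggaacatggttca
Mmp19 -11.6 kb and Adamts6 +3.3 kb held no match to any of the 5 words. The capitals in Adamts6 +2.4 kb are a TEAD and then a SMAD word, in Adamts15 +26.0 kb a TEAD and then a RUNX word, in Adamts15 +35.6 kb a RUNX and then a SMAD word, in Mmp15 +6.3 kb a RUNX word and in Mmp24 +2.5 kb a SMAD word. A match describes the letters only and is not a binding site.

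The peak lists held 50445 to 69180 peaks per library, and the median pileup over the shared regions was 63.0 to 110 reads. Levels in replicates correlated across those regions with r between 0.831 and 0.943. As a check of the cell type, 6 of 10 epithelial markers, among them Cdh1, Krt8 and Krt18, had a promoter peak in all 15 libraries, whereas Epcam, Esrp1 and Cldn3 had none in any. Among 7 fibroblast markers Col1a1 had a promoter peak in all 15 libraries and 4 had none. All 4 endothelial and all 3 adipocyte markers and 5 of 6 immune markers had no promoter peak in any library.

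Of the 78 genes, 28 (35.9%) had neither a promoter peak nor a distal region in any library, against 29.7% of all protein-coding genes. They were 16 of 32 Adam genes, 10 of 23 Mmp genes, 2 of 19 Adamts genes and none of the Timp genes. The Mmp genes without a peak were Mmp1a, Mmp1b, Mmp2, Mmp3, Mmp7, Mmp8, Mmp16, Mmp20, Mmp21 and Mmp25, which include the gelatinase Mmp2, the stromelysin Mmp3 and the matrilysin Mmp7. The ADAM-type genes without a peak were Adam1a, Adam1b, Adam3, Adam4, Adam5, Adam6a, Adam6b, Adam7, Adam19, Adam21, Adam25, Adam26a, Adam26b, Adam29, Adam34, Adam39, Adamts18 and Adamts19, many of which are known from the testis. The other gelatinase gene, Mmp9, had no promoter peak and 2 distal regions, each with a peak in fewer than 3 libraries. A promoter peak in at least 3 libraries, the filter for testing, was found for 30 of 78 members (38.5%) against 51.3% of all protein-coding genes. A promoter peak in all 15 libraries was found for 17 members (21.8%) against 46.3% of all genes. The filter keeps a feature that has peaks in 1 condition alone, so the counts of tested features below are not counts over all members.

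Promoter levels differed widely among the members. The sheddases Adam10 and Adam17, which release Notch fragments and TNF among other substrates, had levels of 1.24 to 2.00 and 1.25 to 1.92. Adam9 and Adam15, other catalytic ADAM proteins, lay at 1.72 to 2.30 and 1.08 to 1.90, and the Adam9 promoter shares its 1000 bp window with a start of Tm2d2. Adamts1, a versican-cleaving protease, ranged from 1.29 to 2.12, and Timp2, the partner of Mmp14 in the activation of pro-Mmp2, from 1.39 to 2.44. Mmp14, the main membrane-type collagenase, lay between 1.35 and 2.29 in 14 libraries and had no peak in ERKi 24h replicate 3. These 7 promoters were marked at or above a typical shared region in all of these libraries, and without a replicate block none of them was called in any of the 4 comparisons.

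The other promoters were weaker. Mmp28, the epilysin gene, ranged from 0.663 to 1.52, Adam32 from 0.492 to 0.873 and Adamts10 from 0.286 to 0.810. The promoters of Adam33, Mmp11, Mmp13, Mmp17, Mmp19, Timp1 and Timp3 had peaks in all 15 libraries, at levels between 0.143 and 0.692. Adam8, Adam11, Adam12, Adam22, Adam23, Adamts4, Adamts13, Adamts14, Mmp10, Mmp23, Mmp24 and Mmp27 had peaks in 3 to 14 libraries. Mmp15 had no promoter peak.

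**Figure D1:**
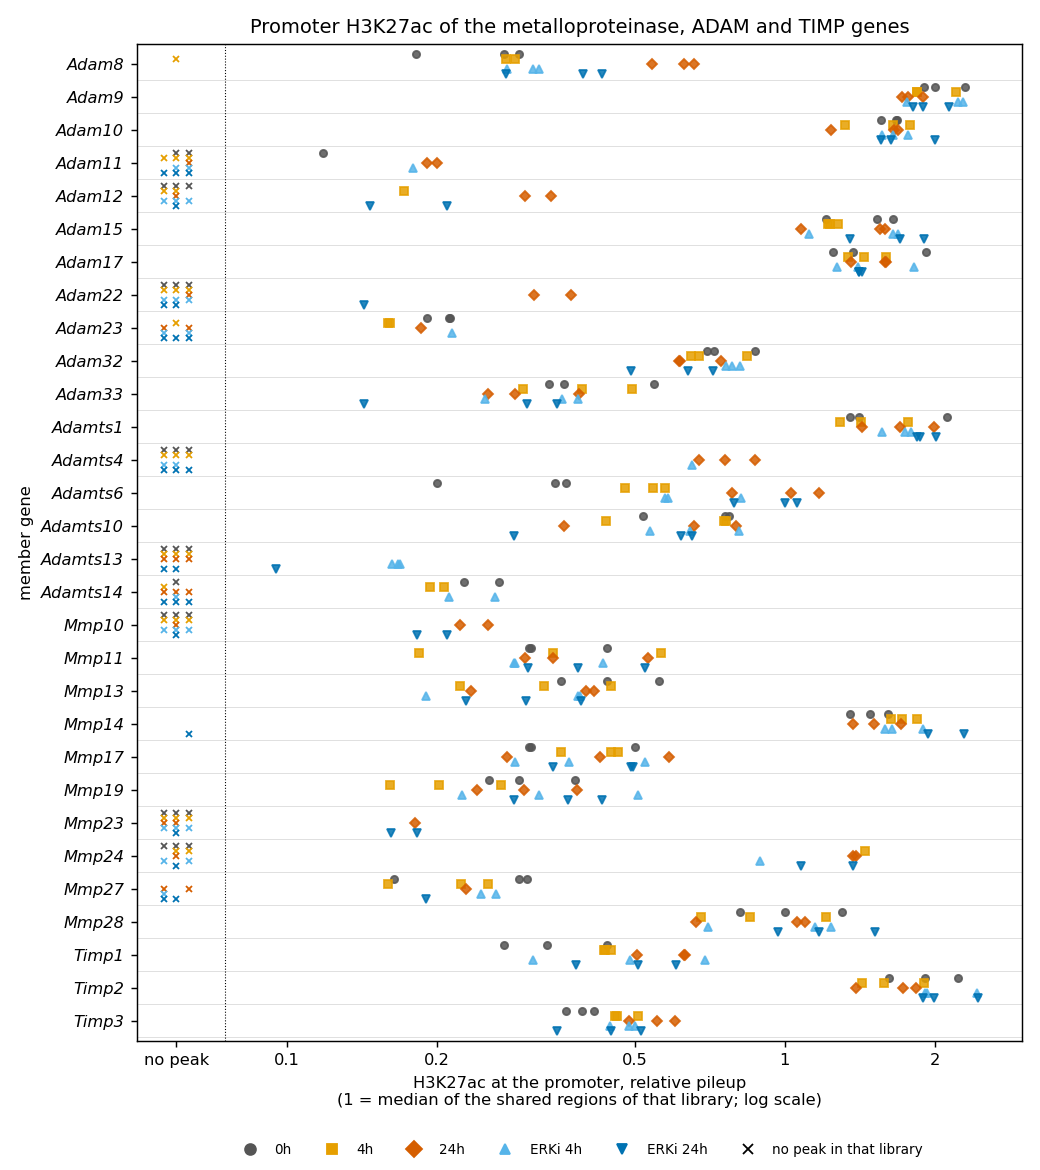
Relative pileup (log axis) at each of the 30 tested member promoters, 1 point per library and 1 colour per condition, with crosses in the strip at the left for libraries with no peak. Adam9, Adam10 and Timp2 lie at 1.24 or above in all 15 libraries, Adamts6 rises from 0.200 to 0.364 at 0h to 0.783 to 1.17 at 24h, and Adamts4 has 4 points in all.

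The first comparison asks how promoters differed after 24h of TGF-β. Of 30 tested promoters 3 were higher at 24h than at 0h, those of Adamts6, Adam8 and Adamts4, against 1.10% of 11470 promoters of all genes, and none was lower, against 0.872%. The count with no promoter lower came from limma at an adjusted p of 0.05, and 9 of the 30 had an unadjusted p under 0.05 in either direction, against 11.7% of all promoters. All 9 were higher at 24h. Among them Adam12, Adam22, Adamts4, Mmp10 and Mmp24 had no peak at 0h, so that their changes rest on the value given to missing peaks. The median log2 change was 0.04 over these promoters and -0.09 over all.

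Adamts6, a relative of Adamts10 that acts on microfibrils, had promoter levels of 0.345, 0.364 and 0.200 at 0h, of 0.543, 0.478 and 0.575 at 4h and of 1.17, 1.03 and 0.783 at 24h. The 3 conditions did not overlap and lay in the order of time. The 24h level was 3.35-fold that at 0h (log2 change 1.74 ± 0.27 SE, adjusted p = 0.00280). The call held without each library in turn, but not when fold enrichment, the summit over its own local background, was used in place of the pileup (log2 change 0.36, adjusted p = 0.467). With the inhibitor at 24h the levels were 1.00, 1.06 and 0.790, inside the range of the 24h cells, with a log2 difference of -0.06 ± 0.27 (adjusted p = 0.988).

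Adam8, a protease of immune and tumour cells, had promoter levels of 0.182, 0.273 and 0.293 at 0h and of 0.628, 0.657 and 0.542 at 24h. The groups did not overlap, and the difference was 2.49-fold (log2 change 1.31 ± 0.28, adjusted p = 0.0221). The call was lost without 0h replicate 1 or without any 24h replicate (highest adjusted p = 0.118) and on fold enrichment (log2 change 0.36, adjusted p = 0.623). The ERKi 24h levels were 0.394, 0.429 and 0.276, all below the 24h cells, but the difference did not pass the test (log2 change -0.75 ± 0.28, adjusted p = 0.277).

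Adamts4, an aggrecan- and versican-cleaving enzyme, had a promoter peak in all 24h libraries, at 0.872, 0.671 and 0.759, and otherwise only in ERKi 4h replicate 3, at 0.650. The fitted changes from 0h (2.38 ± 0.44) and with the inhibitor (-2.55 ± 0.44) were called, but rest on the floor given to missing peaks, the lowest percentile of each list. This promoter met the filter only through the 24h libraries, so these calls are no support. With missing values set at the pileup that the local background would have needed for a call, they became 0.43 (adjusted p = 0.375) and -0.45 (adjusted p = 0.372), and neither was called. They were also lost without 0h replicate 1 (24h against 0h only), without ERKi 24h replicate 3 (inhibitor only) and without 24h replicate 1 (both). Under that detection limit the share of all promoters called was 1.07% higher at 24h, with 2 members, and 0.654% lower with the inhibitor, with no member.

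The inhibitors themselves showed smaller promoter differences. Timp1, a soluble inhibitor, had levels of 0.273, 0.333 and 0.440 at 0h and of 0.628, 0.629 and 0.506 at 24h, with no overlap and a log2 change of 0.77 ± 0.29 that did not pass the test (adjusted p = 0.269). Timp3, which binds the matrix, lay at 0.391, 0.364 and 0.413 at 0h and at 0.553, 0.486 and 0.602 at 24h (0.49 ± 0.21, adjusted p = 0.360). On fold enrichment neither rise was seen, with log2 changes of -0.01 for Timp1 and -0.08 for Timp3.

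In the other comparisons few promoters were called. Between 4h and 0h none of the 30 passed in limma, against 0.0959% of all promoters, and 1 had an unadjusted p under 0.05, against 5.18% of all. In the fit with the replicate number, which paired the libraries, as a block, Adamts6 was called at 4h (log2 change 0.86, adjusted p = 0.0414), against 1.28% of all promoters. Between ERKi 24h and 24h, the Adamts4 promoter was the 1 lower, against 0.575% of all promoters, and none was higher, against 0.401%. The blocked fit called 2 there, against 10.5% of all promoters, adding Timp2 (0.35, adjusted p = 0.0366). Between ERKi 4h and 4h no member promoter was called in limma or in the blocked fit, and 1 had an unadjusted p under 0.05, against 2.02% of all.

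Most of the movement was at distal regions. Of 89050 merged regions, 224 were distal regions of member genes and 124 of these, near 38 genes, had a peak in at least 3 libraries and were tested, 41 of them with a peak in all 15. By place, 51 lay inside the member gene, 20 inside another protein-coding gene and 53 outside such genes, and 63 of 124 (50.8%) were intronic and 53 (42.7%) intergenic. Over the 15 libraries Timp3 had the most distal peaks, 236, followed by Adamts6 with 141, Adamts1 with 139, Adam30 with 129 and Adamts15 with 105. The regions of Timp3 lie in or beside Syn3, the gene around it, and those of Adam30 include introns of Notch2, so that the nearest start need not be that of the gene a region acts on.

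At 24h against 0h, 43 of the 124 tested regions were called, against 27.6% of 38756 distal regions of all genes. Of these, 35 near 17 genes were higher, against 18.9%, and 8 near 4 genes were lower, against 8.66%. The median log2 change was 0.35 over the members' regions and 0.07 over all regions. Among the regions with a peak in all libraries 17 of 41 were called, against 32.4% of 13030 such regions of all genes. By family, the higher and lower regions numbered 13 and 7 of 53 for Adamts, 11 and 1 of 30 for Adam, 6 and 0 of 19 for Mmp, and 5 and 0 of 22 for Timp. Within Adamts, the hyalectanases, which cleave proteoglycans such as versican, had 2 higher and 5 lower of 26 regions, the procollagen N-proteinases (Adamts2, Adamts3 and Adamts14) 0 higher and 2 lower of 10, and the remaining Adamts genes 11 higher and 0 lower of 17. Single genes make up most of these counts, as Adamts15 alone held 4 of the 5 lower hyalectanase regions and Adamts6 alone 8 of the 11 higher ones.

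The strength of these calls varied. All 43 were called in the blocked fit, which called 60, against 39.8% of all regions. With missing values at the detection limit 40 were held of 45 called, against 29.2% of all, while 20 held without each library in turn and 22 on fold enrichment. On fold enrichment too a missing peak was given the first percentile of its list, so a floor also enters those calls. Of the 17 in regions with a peak in all libraries, 2 held on fold enrichment and 6 had the opposite sign there. Separately, 6 of the 43 met the filter of 3 libraries only through the condition in which they were higher (Adam12 -5.1 kb, Adam22 +1.2 kb, Adamts2 +41.1 kb, Adamts5 -49.6 kb, Adamts6 +3.3 kb and Adamts12 +19.6 kb), so that they had to differ and their tests are no support. The counts of calls held above include such regions. Adam22 +1.2 kb and Adamts6 +3.3 kb are among the 20, and Adam12 -5.1 kb and Adam22 +1.2 kb are among the 22. Without 0h replicate 1 the count was 25, without 0h replicate 3 it was 26, without 24h replicate 1 it was 27 and without 24h replicate 3 it was 23. The share of all distal regions called in these smaller fits was not counted, so the falls cannot be read as particular to these genes.

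**Figure D2:**
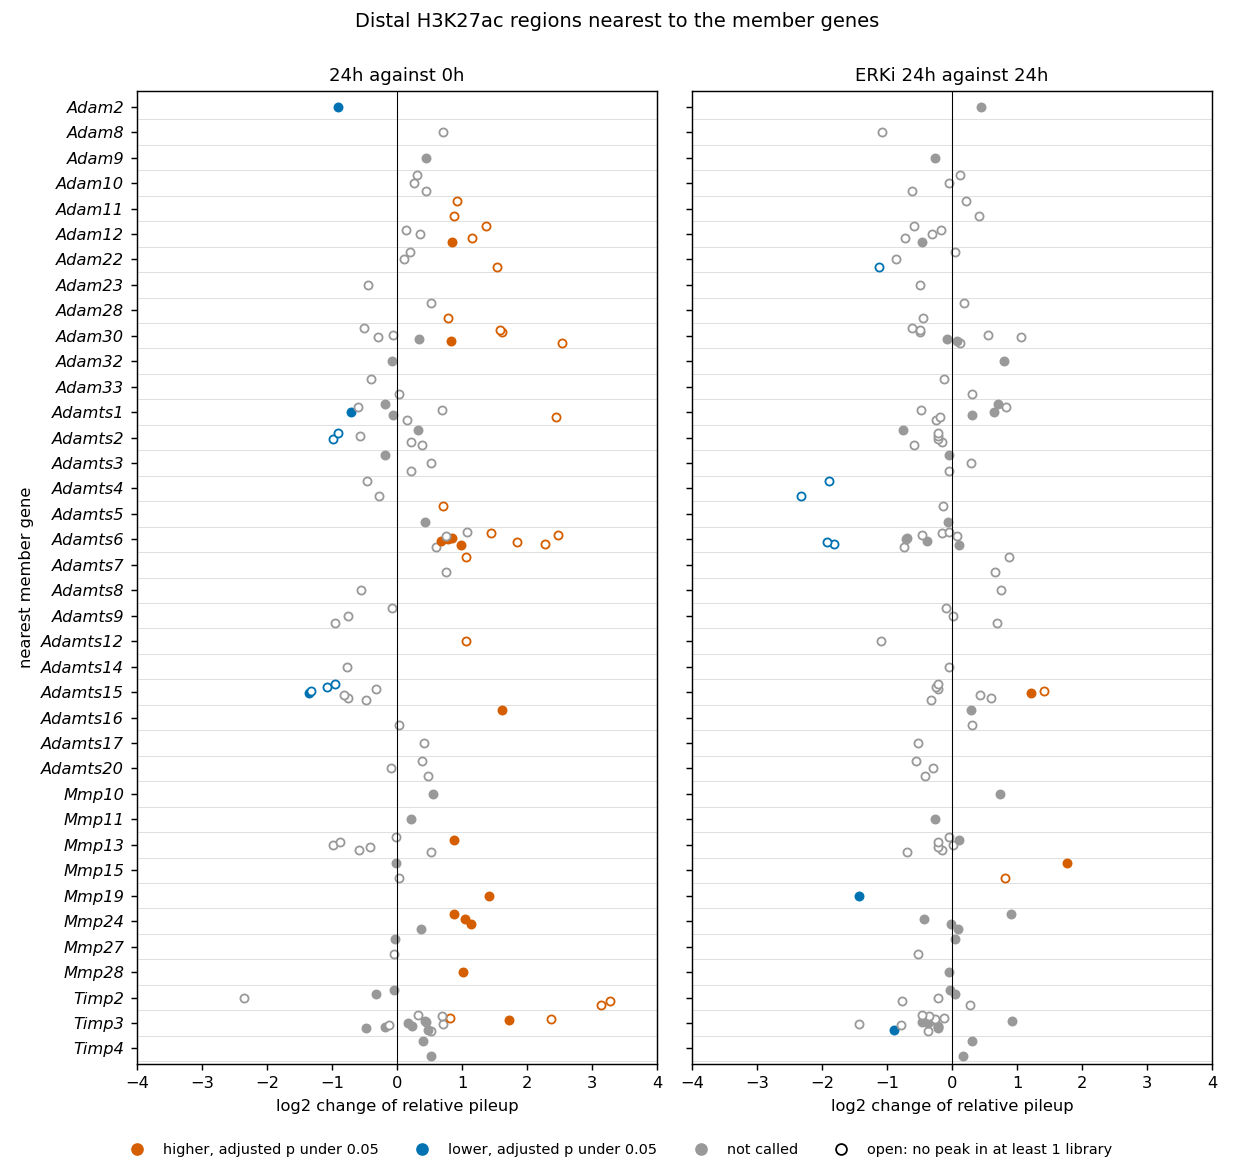
Log2 change of relative pileup at each tested distal region, by gene, for 24h against 0h (left) and ERKi 24h against 24h (right), with orange points for regions called higher, blue for lower, grey for not called and open points for regions with no peak in at least 1 library. On the left 35 regions are orange and 8 blue, and the 4 blue points of Adamts15 stand apart from the orange ones of Adamts6. On the right 4 are orange and 7 blue.

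Adamts6 had the most called regions, 8 higher of its regions at 24h. Adamts6 +2.4 kb (chr13:105237794-105238093, in an intron 160.0 kb from the outermost start) had no peak at 0h, a peak in 4h replicate 3 at 0.126, and levels of 0.894, 0.600 and 0.675 at 24h. The fitted log2 change from 0h was 2.28 ± 0.26 (adjusted p = 3.06e-05), and 2.10 with missing values at the detection limit. The call held on fold enrichment, where missing peaks also take a floor. Its neighbour Adamts6 +3.3 kb (chr13:105238697-105238996) had peaks at 0.702, 0.429 and 0.482 at 24h and none at 0h or 4h (fitted log2 change 1.84 ± 0.27, and 1.29 at the detection limit).

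Adamts6 +71.4 kb, downstream of the gene, had no peak at 0h, lay at 0.170, 0.269 and 0.230 at 4h and at 0.840, 0.729 and 0.867 at 24h. The 3 conditions were thus apart from each other, with a log2 change at 24h of 2.47 ± 0.29 (adjusted p = 3.26e-05, and 1.70 at the detection limit). Adamts6 -1.7, +14.6, +15.4 and +21.9 kb had a peak in all 15 libraries, and their log2 changes at 24h were 0.99, 0.68, 0.79 and 0.84. These 4 were not called on fold enrichment, where all 4 had a negative change, and each was lost without at least 1 library of 0h or 24h (highest adjusted p = 0.159). The call of Adamts6 +75.0 kb was lost at the detection limit.

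Single strong regions stood at other Adamts and Mmp genes. Mmp19 -11.6 kb (chr10:128216303-128216602, intergenic) belongs to a secreted protease of basement membrane proteins. It had levels of 0.364, 0.470 and 0.507 at 0h, of 0.447, 0.537 and 0.644 at 4h and of 1.19, 1.06 and 1.30 at 24h. All 24h libraries lay above all other libraries, 2.67-fold over 0h (1.41 ± 0.25, adjusted p = 0.000769, but on fold enrichment 0.46, adjusted p = 0.107).

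Adamts1 -24.4 kb had no peak at 0h, levels of 0.277, 0.239 and 0.356 at 4h and of 0.883, 0.700 and 0.831 at 24h. The levels rose from condition to condition without overlap, and the 24h call (2.45 ± 0.26, adjusted p = 1.48e-05) held at the detection limit (2.41) and on fold enrichment (2.22, adjusted p = 1.59e-06). With no peak at 0h, the change on fold enrichment also rests on a floor. Adamts16 +47.1 kb, in an intron of a gene for a fibronectin-cleaving protease, lay at 0.264, 0.303 and 0.333 at 0h and at 1.10, 0.543 and 1.31 at 24h, 3.08-fold higher with no overlap (1.62 ± 0.30, adjusted p = 0.00118). This call also held on fold enrichment (0.39). Mmp28 +5.2 kb lay at 0.618, 0.621 and 0.627 at 0h and at 1.28, 1.00 and 1.54 at 24h (1.01 ± 0.20, adjusted p = 0.00153, but 0.11 and not called on fold enrichment).

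Mmp24, a membrane-type protease best known from neurons, had 3 higher regions of its gene body. At Mmp24 +2.5 kb (chr2:155635098-155635397) the levels were 0.882, 0.833 and 0.907 at 0h, 1.80, 1.58 and 2.10 at 4h and 2.07, 1.46 and 2.36 at 24h. All treated libraries lay above all 0h libraries, 2.08-fold at 4h and 2.20-fold at 24h (24h: 1.14 ± 0.21, adjusted p = 0.000904), but neither was called on fold enrichment (0.31 and 0.15). The promoter of this gene had peaks in 6 libraries alone, at 0.892 to 1.45.

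Among the inhibitors, 5 regions were higher at 24h, of Timp3 and Timp2. Timp3 +43.7 kb, which lies in an untranslated part of Timp3, had levels of 0.200, 0.212 and 0.333 at 0h, of 0.936, 0.925 and 0.977 at 4h and of 0.819, 0.614 and 1.00 at 24h. Every treated library lay above every 0h library, and the difference was 3.91-fold at 4h and 3.29-fold at 24h (24h: 1.72 ± 0.27, adjusted p = 0.000343). On fold enrichment neither was called (0.60, adjusted p = 0.143, and 0.27, adjusted p = 0.340). Timp3 +48.9 kb had 1 peak at 0h, at 0.173, levels of 0.394, 0.299 and 0.506 at 4h and of 0.968, 0.457 and 1.16 at 24h (2.37 ± 0.42, adjusted p = 0.000785, and 1.84 at the detection limit). It held on fold enrichment, where missing peaks also take a floor.

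At Timp2, the regions at -10.3 and -9.4 kb had no peak in any 0h or 4h library and levels of 1.33, 1.06 and 1.52 and of 1.44, 1.20 and 1.66 at 24h. The fitted changes of 3.13 and 3.28 depended on the floor. They became 0.44 (adjusted p = 0.0979) and 0.27 (adjusted p = 0.396) at the detection limit and were then not called. The next regions of the same domain, at -6.0 and -5.1 kb, had levels of 2.14 to 3.55 and 1.71 to 2.73 in all 15 libraries and were not called without the block, which called -6.0 kb at 24h (-0.32, adjusted p = 0.0134). The peaks at -10.3 and -9.4 kb are thus counted among the 43 calls, but their size cannot be read from these lists.

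The ADAM regions that rose were spread over 5 genes. Adam12, which is known from muscle and tumour stroma, had 3. Adam12 -30.1 kb lay at 0.818, 0.864 and 1.08 at 0h and at 1.61, 1.39 and 2.01 at 24h (0.85 ± 0.19, adjusted p = 0.00429, but -0.20 on fold enrichment), and Adam12 +39.5 kb rose by 1.37 ± 0.29 (adjusted p = 0.00292). Adam22 +1.2 kb, at a gene for a non-catalytic Lgi receptor, had peaks at 0.574, 0.314 and 0.422 at 24h and none at 0h (fitted log2 change 1.53 ± 0.29, and 0.98 at the detection limit). The regions assigned to Adam30, whose own role is best known in the testis, were higher at 4 sites, the largest change being at -68.2 kb in an intron of Notch2 (2.53 ± 0.41, adjusted p = 0.000401, and 1.18 at the detection limit).

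The 8 regions that were lower at 24h were 4 of Adamts15, 2 of Adamts2, 1 of Adamts1 and 1 of Adam2, the last in an intron of Ephx2. Adamts15 encodes a hyalectanase, and these regions lie downstream of its start and outside protein-coding genes. Adamts15 +26.0 kb (chr9:30703931-30704230) had levels of 0.800, 0.576 and 0.840 at 0h, of 0.404, 0.418 and 0.667 at 4h and of 0.213, 0.343 and 0.313 at 24h. The 24h libraries lay below all 0h and 4h libraries, 2.57-fold lower than at 0h (-1.36 ± 0.30, adjusted p = 0.00365, but on fold enrichment -0.25, adjusted p = 0.296).

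Adamts15 +35.6 kb (chr9:30694314-30694613) had levels of 0.400, 0.394 and 0.467 at 0h, and at 24h a single peak, in replicate 3, at 0.181 (-1.33 ± 0.36, adjusted p = 0.0124). This call held on fold enrichment, where missing peaks also take a floor. Adamts15 +66.6 and +72.5 kb had peaks in all 0h libraries and none at 24h (-1.08 ± 0.36 and -0.96 ± 0.30), and both calls were lost without 0h replicate 3, 24h replicate 1 or 24h replicate 3 (highest adjusted p = 0.140), the first also without 0h replicate 1. Adamts2, a procollagen N-proteinase, lost its peaks at +41.1 kb, where the 0h levels were 0.300, 0.333 and 0.227 and no 24h library had a peak (fitted log2 change -0.91 ± 0.26, lost without 0h replicate 2 or 24h replicate 3).

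**Figure D3:**
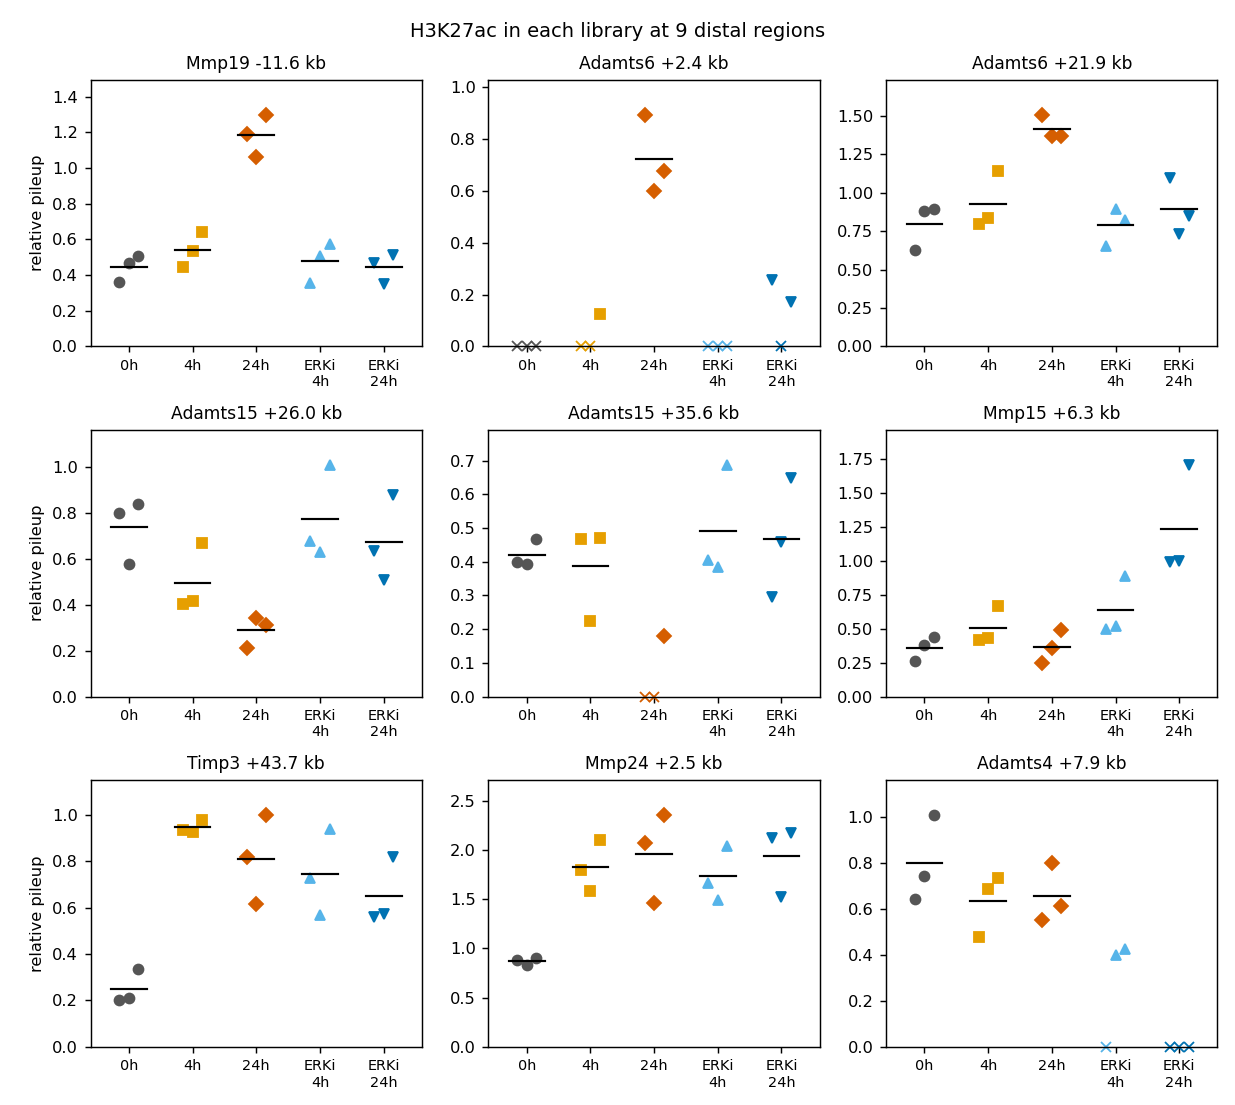
Relative pileup in each of the 15 libraries at 9 distal regions, with a bar at the mean of conditions in which all 3 libraries have a peak and a cross at 0 where a library has none. The 24h points of Mmp19 -11.6 kb, 1.06 to 1.30, stand above all others, the 24h points of Adamts15 +26.0 kb, 0.213 to 0.343, stand below all others, and the ERKi 24h points of Mmp15 +6.3 kb, 0.991 to 1.71, stand above all others.

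The early comparison, 4h against 0h, asks which regions had moved by then. Called were 2 of 124, Timp3 +43.7 kb (1.97 ± 0.27, adjusted p = 0.000548) and Mmp24 +2.5 kb (1.06 ± 0.21, adjusted p = 0.00757), against 3.81% of all distal regions in either direction and 3.40% higher. Both held without each library in turn and in the blocked fit, and neither was called on fold enrichment, which called Adamts1 -24.4 kb (1.55, adjusted p = 2.53e-05) and Adamts6 +71.4 kb (1.25, adjusted p = 0.00259) instead. Adamts1 -24.4 kb and Adamts6 +71.4 kb had no peak at 0h, so these changes rest on the floor of the fold enrichment. The median change was -0.01 over the members' regions and over all. The blocked fit called 9, against 9.85% of all, adding Adam12 -30.1 kb (0.41), Adam30 -54.7 kb (0.81), Adamts1 -24.4 kb (0.97, adjusted p = 0.0128, unblocked 0.0524), Adamts16 +47.1 kb (1.13, adjusted p = 0.00933, unblocked 0.0522), Mmp24 +3.3 kb (0.92), Mmp28 +5.2 kb (0.47) and Timp3 +48.9 kb (1.33, adjusted p = 0.0131). At the detection limit 4 were called, against 4.36%, the added ones being Adamts1 -24.4 kb and Adamts16 +47.1 kb. Without 24h replicate 2, which shares in the estimate of the spread, the count was also 4, and the share of all regions called then was not counted.

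With the inhibitor at 24h, 11 of 124 regions differed from the 24h cells, against 10.4% of all distal regions. The higher ones were 4, against 4.53%, and the lower ones 7, against 5.85%. The median log2 difference was -0.17 over the members' regions and -0.06 over all. All 11 held in the blocked fit, which called 28, against 22.1% of all, and at the detection limit, which called 17, against 13.5%, whereas 6 held without each library in turn and 5 on fold enrichment. Without 24h replicate 1 the count was 7, and without ERKi 24h replicate 2 it was 17, where the share of all regions called was not counted. This comparison uses the same 24h libraries as the one against 0h, so that a high or low value in them moves both in opposite directions, and the levels in each condition are therefore given side by side.

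The 7 lower regions belonged to Mmp19, Adamts6, Adamts4, Adam22 and Timp3. At Mmp19 -11.6 kb the ERKi 24h levels were 0.468, 0.349 and 0.514, overlapping those of 0h (0.364 to 0.507) and ERKi 4h (0.357 to 0.575) and below all 24h libraries (1.06 to 1.30). The difference was 2.69-fold (-1.43 ± 0.25, adjusted p = 0.00252, but on fold enrichment -0.56, adjusted p = 0.115). At Adamts6 +2.4 kb the ERKi 24h libraries had peaks at 0.257 and 0.171 in replicates 1 and 3 and none in replicate 2, below the 24h range of 0.600 to 0.894 (-1.81 ± 0.26, adjusted p = 0.000826, but on fold enrichment -0.65, adjusted p = 0.308). At Adamts6 +3.3 kb they had peaks at 0.110 and 0.124 in the same replicates, with a fitted difference of -1.93 ± 0.27. As this region, Adam22 +1.2 kb and Mmp15 -3.5 kb met the filter only through the condition in which they were higher, their 3 calls among the 11 are no support and no p is given.

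Other regions of Adamts6 differed less. At +21.9 kb the 24h levels were 1.51, 1.37 and 1.37 and the ERKi 24h levels 1.10, 0.730 and 0.848, without overlap (-0.69 ± 0.22, adjusted p = 0.0589, with the block 0.0248). At +15.4 kb they were 1.19, 0.986 and 1.18 against 0.826, 0.571 and 0.676, also without overlap (-0.71 ± 0.25, adjusted p = 0.0846, with the block 0.0371). At +71.4 kb they were 0.840, 0.729 and 0.867 against 0.596, 0.444 and 0.762, with an overlap (-0.47, adjusted p = 0.352), and at -1.7 kb 0.681, 0.986 and 0.590 against 0.743, 1.00 and 0.667 (0.11, adjusted p = 0.850). Within this gene Adamts6 +2.4 kb was thus called, though not on fold enrichment, and the call of +3.3 kb is no support. The promoter and its upstream neighbour were not called, and the difference between these regions was not tested.

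Adamts4 showed another pattern, in that its regions were not called between 24h and 0h. Adamts4 +7.9 kb, in an untranslated part of the gene, had levels of 0.645, 0.742 and 1.01 at 0h, of 0.553, 0.800 and 0.614 at 24h, of 0.400 and 0.425 in 2 of 3 ERKi 4h libraries, and no peak in any ERKi 24h library. The fitted difference at 24h was -2.32 ± 0.39 (adjusted p = 0.00212), or -1.28 (adjusted p = 0.00151) at the detection limit. It passed on fold enrichment, where missing peaks also take a floor. Adamts4 +8.8 kb had levels of 0.330, 0.529 and 0.639 at 24h, and likewise no peak at ERKi 24h (-1.89 ± 0.36, adjusted p = 0.00443, and -0.85, adjusted p = 0.0290, at the detection limit). The promoter also had no peak in any ERKi 24h library. It had none at 0h or 4h either and met the filter only through the 24h libraries, so its absence adds no support.

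The remaining lower regions were less firm. At Adam22 +1.2 kb the ERKi 24h libraries had peaks at 0.275 and 0.143 and none in replicate 2, with a fitted difference of -1.12 ± 0.29 that was not called without 24h replicate 1, 24h replicate 3 or ERKi 24h replicate 3, or on fold enrichment. Timp3 -30.2 kb, in Syn3, lay at 1.29, 0.957 and 1.55 at 24h and at 0.596, 0.571 and 0.886 at ERKi 24h (-0.89 ± 0.25, adjusted p = 0.0310). The groups did not overlap, but the call was lost without 24h replicate 1 or 3 or ERKi 24h replicate 1 or 2 (highest adjusted p = 0.121), and on fold enrichment the change was 0.11. In the blocked fit this region was also called at 24h against 0h (0.47, adjusted p = 0.0337).

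The 4 higher regions were 2 of Adamts15 and 2 of Mmp15. Adamts15 +26.0 kb lay at 0.213, 0.343 and 0.313 at 24h and at 0.633, 0.508 and 0.876 at ERKi 24h, close to the 0h range of 0.576 to 0.840, with a difference of 2.31-fold (1.21 ± 0.30, adjusted p = 0.0188, but on fold enrichment 0.42, adjusted p = 0.150). Adamts15 +35.6 kb lay at 0.294, 0.460 and 0.648 at ERKi 24h against the single 24h peak (1.42 ± 0.36, adjusted p = 0.0208). The call at +35.6 kb held on fold enrichment, where missing peaks also take a floor. Both were lost without 24h replicate 1 or ERKi 24h replicate 3 (highest adjusted p = 0.0935 and 0.106). By contrast, Adamts15 +66.6 and +72.5 kb, which had lost their peaks at 24h, had 1 peak and none at ERKi 24h.

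Mmp15 encodes a membrane-type protease related to Mmp14. Mmp15 +6.3 kb (chr8:97882937-97883236, in an intron) had levels of 0.264, 0.379 and 0.440 at 0h, of 0.245, 0.357 and 0.494 at 24h and of 0.991, 1.00 and 1.71 at ERKi 24h. The ERKi 24h libraries lay above all 12 others, of which ERKi 4h replicate 3 was the highest at 0.887. The difference from 24h was 3.40-fold (1.77 ± 0.34, adjusted p = 0.00454), while on fold enrichment it was -0.01 (adjusted p = 0.976). Mmp15 -3.5 kb had peaks in the ERKi 24h libraries alone, at 0.229, 0.365 and 0.219, and the other 12 values are the floor of each list, so that its fitted difference is not given.

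**Figure D4:**
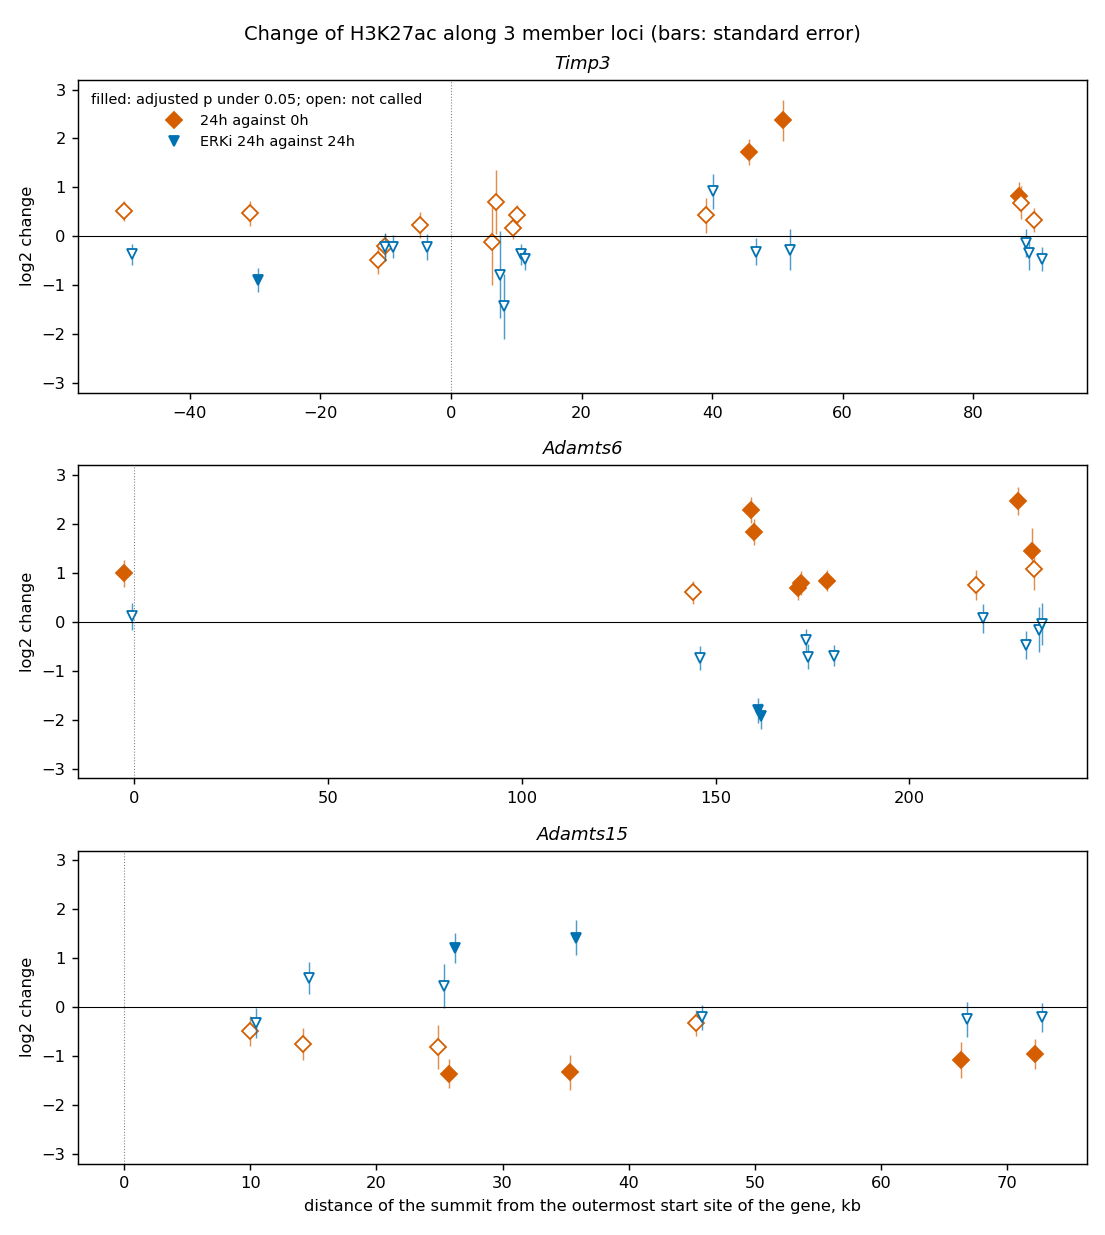
Log2 change ± SE of each tested distal region of Timp3, Adamts6 and Adamts15 against its distance in kb from the outermost start, for 24h against 0h and for ERKi 24h against 24h, with filled points for called regions and the pairs set slightly apart sideways. At Adamts15 the filled points of the 2 comparisons lie on opposite sides of 0, as do those of Adamts6 near 160.0 kb, while the changes of Timp3 at 46.2 and 51.4 kb have no called counterpart with the inhibitor. Among those Adamts6 points, the ones of Adamts6 +3.3 kb are no support, as this region met the filter only through the 24h libraries.

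A larger group of rises at 24h had no called counterpart with the inhibitor. With 3 libraries per condition, a missing call does not show that the levels were the same. At Adamts1 -24.4 kb the ERKi 24h levels were 0.642, 0.667 and 0.819 against 0.883, 0.700 and 0.831 at 24h, and at Adamts16 +47.1 kb they were 1.22, 0.810 and 1.45 against 1.10, 0.543 and 1.31. At Mmp24 +2.5 kb they were 2.12, 1.52 and 2.17 against 2.07, 1.46 and 2.36, at Mmp28 +5.2 kb 1.15, 1.08 and 1.43 against 1.28, 1.00 and 1.54, and at Timp3 +43.7 kb 0.560, 0.571 and 0.819 against 0.819, 0.614 and 1.00. In all 5 the ranges overlapped. Within replicate numbers, ERKi 24h was lower in every pair at Adamts1 -24.4 kb and Timp3 +43.7 kb. It was higher in every pair at Adamts16 +47.1 kb and went both ways at Mmp24 +2.5 kb and Mmp28 +5.2 kb. At Adam12 -30.1 kb the levels of 1.13, 1.13 and 1.33 lay below those at 24h without overlap. The difference of -0.47 passed in the blocked fit (SE 0.10, adjusted p = 0.00586) and not without the block (SE 0.19, adjusted p = 0.142). The blocked fit also called Mmp24 +3.3 kb lower (-0.43, adjusted p = 0.0343), which was not called without the block (SE 0.34, adjusted p = 0.50).

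At 4h no distal region of these genes differed with the inhibitor in limma, against 0.232% of all distal regions, and 5 of 124 (4.03%) had an unadjusted p under 0.05, against 6.0% of all. The blocked fit called 1, Adamts4 +8.8 kb (-1.32, adjusted p = 0.0372), against 1.25% of all. That region had peaks in all 4h libraries and in 1 ERKi 4h library, at 0.300. At the detection limit none was called.

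The total number of distal peaks near these genes did not pass an exact test in any comparison, with a design too small to reach p of 0.05. The 0h libraries had 92, 103 and 129 such peaks, the 4h libraries 90, 117 and 144, and the 24h libraries 136, 125 and 171. The ERKi 4h libraries had 104, 100 and 136, and the ERKi 24h libraries 143, 115 and 152. The mean was 108 at 0h and 144 at 24h, and the groups overlapped, while within replicate numbers the 24h library had 44, 22 and 42 more peaks, higher in 3 of 3 pairs. Exact two-sided permutation tests over libraries gave p = 0.200 for 24h against 0h, 0.700 for 4h against 0h, 0.700 for ERKi 24h against 24h and 0.900 for ERKi 4h against 4h, where 3 against 3 libraries cannot go below 0.1. Exact sign-flip tests within the 3 pairs, chosen after seeing the data, gave p = 0.250, 0.50, 0.50 and 0.750 in that order and cannot go below 0.25. As a share of all distal peaks of a library the numbers were 0.277% ± 0.0271 at 0h and 0.314% ± 0.0289 at 24h (exact permutation p = 0.300), with a higher share at 24h in 2 of 3 pairs (paired exact p = 0.50).

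By gene, 44 members had distal peaks. Those whose peak numbers did not overlap between 24h and 0h were 7 higher at 24h (Timp3, Adam11, Adamts20, Mmp24, Adam30, Adamts6 and Adamts16), against 14.5% of 11997 genes, and 1 lower (Adamts15), against 4.68%. Timp3 had 9, 12 and 13 distal peaks in the 0h libraries, 14, 14 and 17 in those of 4h, 22, 18 and 25 in those of 24h and 15, 16 and 16 in those of ERKi 24h. Adamts15 had 8, 7 and 12 in the 0h libraries, 1, 2 and 5 in those of 24h and 6, 4 and 7 in those of ERKi 24h. Timp3 was thus the 1 member with more peaks at 4h than at 0h without overlap, against 4.88% of genes, and none had fewer, against 1.13%.

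Between ERKi 24h and 24h, 2 members had more peaks without overlap (Timp2 and Mmp15), against 4.60% of genes, and 4 had fewer (Adamts4, Timp3, Adamts2 and Mmp13), against 3.48%. Mmp15 had 4, 3 and 5 peaks at ERKi 24h and 1 in each 24h library, and Adamts4 had none against 2, 3 and 3. Between ERKi 4h and 4h, 1 had more (Timp2), against 1.38%, and 2 had fewer (Adam30 and Mmp27), against 1.03%. The lists themselves held 50445 to 69180 peaks, and the part of that spread in these numbers was not tested.

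Genes that work with these proteases were taken as a list of 34, of activators, cofactors, relatives and partners such as Furin, the plasminogen system, the tetraspanins and iRhoms that guide Adam10 and Adam17, and the ADAMTS-like proteins. Of their 130 tested distal regions near 26 genes, 27 were higher and 20 lower at 24h, against 18.9% and 8.66% of all distal regions. At 4h 4 were higher and 2 lower, against 3.40% and 0.410%, and at ERKi 24h 1 was higher and 14 lower, against 4.53% and 5.85%. None was called at ERKi 4h in limma, against 0.232%. All calls of this list are from the fit without a replicate block. Fold enrichment, the detection limit, the filter and leaving out libraries are not reported for it, so these calls cannot be taken as firmer than those of the members. The higher ones at 24h included 4 regions of Furin, the convertase that activates the precursors of membrane-type Mmp and ADAM proteins, led by the region at -14.4 kb (log2 change 2.16 ± 0.29, adjusted p = 9.62e-05). That Furin region was lower with the inhibitor (-1.13 ± 0.29, adjusted p = 0.0216). Plaur, the urokinase receptor, had 3 higher and 3 lower regions at 24h.

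The regions of the partners of Adam10 and Adam17 moved in both directions. Tspan5 had 6 lower regions and 1 higher at 24h, Tspan15 had 3 lower, and Tspan33 had 1 lower. Rhbdf2 was lower at -5.7 kb (-1.34) and Tspan14 higher at -13.1 kb (1.43). With the inhibitor at 24h, Tspan14 -13.1 kb (-1.37) and Tspan17 at 16.5, 18.5 and 29.1 kb were lower, and Tspan33 -32.5 kb was higher (1.30). Adamtsl3, an ADAMTS-like protein without a protease domain, had 4 higher regions at 24h and 7 lower with the inhibitor. Its region at 55.5 kb rose at 24h (1.92 ± 0.22, adjusted p = 3.04e-05) and at 4h (0.90 ± 0.22, adjusted p = 0.0327) and was lower at ERKi 24h (-1.50 ± 0.22, adjusted p = 0.000911). Of 21 tested promoters of the list, Adamtsl2 was higher at 24h (2.48 ± 0.38, adjusted p = 0.00278) and Papln lower (-1.72 ± 0.40, adjusted p = 0.0391), and no other was called in any comparison.

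The words searched in the printed sequences were counted in the 300 bases at the summit of all tested distal regions. The AP-1 word was found in 8 of 124 members' regions (6.45%) against 3938 of all 38756, the SMAD word in 25.8% against 30.0% of all, the TEAD word in 23.4% against 17.0%, the RUNX word in 17.7% against 21.6% and the ETS word in 1.61% against 1.67%. In the 35 regions higher at 24h the AP-1 word was in 2 (5.71%), the SMAD word in 12 (34.3%), the TEAD word in 8 (22.9%) and the RUNX word in 3 (8.57%). In the 7333 regions of all genes that were higher these shares were 9.76%, 31.8%, 16.7% and 21.7%. In the 250 bases upstream of the start the AP-1 word was in 20 of 78 members (25.6%), among them Mmp1a, Mmp3, Mmp7, Mmp9, Mmp10 and Mmp13, against 12.9% of all genes. Of these 20 members, 5 had a tested promoter. These shares are descriptions with no test.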

How the data were processed

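The deposited data were 15 MACS2 peak lists of H3K27ac ChIP-seq, called per library by the authors from reads aligned to mm9 with Bowtie. Each deposited peak has a fold enrichment (a ratio of pileup to local background), a −log10 p and a −log10 q, and the control used at peak calling is not given in the sources used here. The deposited integer score (10 times the −log10 q) was not used. The 10 RNA-seq and 3 input samples were not analysed here.

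For each peak, the fold enrichment and the −log10 p were solved together for the pileup at the summit and its local background. This was checked on the lists themselves, and 25 of 893719 peaks missed their −log10 p by over 0.005. Pileups were divided by the library median over the 26934 regions with a peak in all 15 libraries, and a missing peak was given the first percentile of its list (relative pileup 0.105 to 0.190). Fold enrichment values were scaled and filled in the same way. The depth in reads is unknown, and depth enters only through these medians, 63.0 to 110. Genes and start sites were those of GENCODE vM1 on mm9. Features with a peak in at least 3 of 15 libraries were tested on log2 relative pileup with limma 3.58.1 (R 4.3.3, trended empirical Bayes) in 1 fit of all 5 conditions, with Benjamini-Hochberg adjustment over 11470 promoters or 38756 distal regions and a threshold of 0.05. Scripts ran in Python 3.11.15.

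Replicate numbers paired the libraries: deviations from the condition means correlated above 0.1 in 30 of 30 same-numbered pairs (0.336 to 0.790, over 26934 regions), and the labels give only the number. Named were a fixed set of well-known members, called promoters, the 10 largest called distal changes per comparison, the members with most distal peaks and the members with no peak. Other regions were named after their values were seen. The members and lists were chosen with earlier results of these data known. Alternatives were a replicate block, fold enrichment, −log10 p or percentiles as the level, other filters, promoter and distal limits, other start sites, and each library left out. The detection limit for missing peaks, and protein-coding transcripts alone, were added after seeing the data. Some items of the gene list and sequences are not reported here.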

Additional observations from a re-analysis of the deposited data

Results flagged for a closer look

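At 2 neighbouring regions in an intron of Adamts6 the effect of the inhibitor at 24h minus that at 4h passed the threshold of the fit. It was -1.85 at Adamts6 +2.4 kb and -1.97 at Adamts6 +3.3 kb on the log2 scale, or -1.97 and -1.88 with missing values at the detection limit. At 4h, 1 of the 6 libraries with or without the inhibitor had a peak at +2.4 kb and none at +3.3 kb, and the other values are the floor, so that these numbers restate the differences of -1.81 and -1.93 at 24h and are no separate support for a change with time. Adamts6 +3.3 kb also met the filter only through the 24h libraries. Of all distal regions 141 of 38756 passed this test, and of promoters 3 of 11470, none of them of a member.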

How the results depend on the processing

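With a replicate block, 1 promoter was called at 4h, 2 at ERKi 24h, and 9, 28 and 1 distal regions at 4h, ERKi 24h and ERKi 4h. The block also called the Adamts12 region named above at ERKi 24h, which met the filter only through the 24h libraries. It changed no other call of a named feature than those printed with their results. On fold enrichment no promoter was called (0 at 24h, 0 at ERKi 24h), and Timp3 -30.2 kb (0.11) and Mmp15 +6.3 kb (-0.01) reversed under the inhibitor at 24h. On −log10 p, 1 promoter was called at 24h, 0 at ERKi 24h, and 5 distal regions at 4h. In features with a peak in all libraries, promoters called were 1 at 24h and 0 at ERKi 24h, and distal regions 17 at 24h, 4 at 4h and 6 at ERKi 24h. Fewer features are tested there, and elsewhere the cause was not tested. Promoters ending 100 bp downstream gave 0 calls at 24h and 0 at ERKi 24h, and one of 2500 bp gave 0 at ERKi 24h. Peaks with a −log10 q of at least 10 gave 0 promoters at ERKi 24h, 16 distal regions at 24h and 4 at ERKi 24h, and differences in the number of distal peaks of 4.67 at ERKi 24h and 2.33 at ERKi 4h. Merging within 1000 bp gave 4 distal regions at 4h. Missing values at the detection limit gave 0 promoters at ERKi 24h and 4 and 17 distal regions at 4h and ERKi 24h, and starts of protein-coding transcripts gave 1 distal region at 4h. Leaving out 1 library gave 1 to 3 promoters at 24h and 0 to 1 at ERKi 24h. For distal regions it gave 23 to 48 at 24h, 2 to 4 at 4h, 7 to 17 at ERKi 24h and 0 to 1 at ERKi 4h. Where no share of all features is printed for a setting, it was not counted, so a change in such a count cannot be read as particular to the members. Differences in the number of distal peaks then ran from 22.5 to 46.5, -4.50 to 22.5, -16.8 to 6.17 and -17.2 to 9.83 in the same order. Peak lists leave out regions under the caller's threshold, so that a level under it cannot be compared.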
